A study of Caenorhabditis elegans with 6 samples.

Results

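The vitellogenin genes vit-1 to vit-6 and the yolk receptor gene rme-2 of the nematode Caenorhabditis elegans were examined in hlh-30(tm1978) mutants and in the wild-type strain N2. Probe sets (groups of array probes that together read a transcript) were taken where the array's gene annotation named a member, alone or beside another gene. This gave 11 of the 22548 probe sets that are not controls, and 6 of the 7 member genes of 18217 genes on the array. No probe set was annotated to vit-3. There were 3 arrays of hlh-30(tm1978) and 3 of wild type. Each was made from whole animals, where RNA from embryos and from L1 and L2 larvae had been pooled within a biological replicate. The mutants carried the tm1978 allele of hlh-30 in every tissue, and no other allele or treatment is named for either group. HLH-30, the worm counterpart of mammalian TFEB, is a helix-loop-helix transcription factor that activates lysosomal, autophagy and lipid-handling genes.

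Vitellogenins are yolk lipoprotein precursors. In C. elegans the intestine of the adult hermaphrodite makes them in large amounts. They are secreted into the body cavity and taken up by growing oocytes through RME-2, a receptor of the low-density lipoprotein receptor family, and the yolk then feeds the embryo. The genes vit-1 to vit-5 encode large, closely related yolk proteins, and vit-6 encodes a more distant precursor that is cut into smaller yolk proteins. The stages pooled here are therefore not the stage in which these genes are mainly transcribed. In a pool of whole animals, fewer cells of a type and less RNA per cell cannot be told apart. The genes vit-1 to vit-5 lie on chromosome X, with vit-4 and vit-3 separated by 1 annotated gene (F59D8.3), and vit-6 and rme-2 lie on chromosome IV in the RefSeq annotation of WBcel235.

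The hlh-30 transcript is read by 3 probe sets, and in each of them the mutant arrays all lay below the wild-type arrays. At 174862_at it averaged 10.28 ± 0.54 on mutant arrays and 12.16 ± 0.16 on wild-type arrays (log2, SD, n = 3 each), with a limma adjusted p of 0.128. Replicate 3 stood apart in each genotype. The deviations of its 2 arrays ran in opposite directions (correlation of −0.519), as did those of replicates 1 (−0.408) and 2 (−0.423). Deviations were taken from the mean of each genotype, so these correlations are not independent. Over the tested probe sets, the median absolute difference from the other arrays of the genotype was 0.27 for mutant 3, against 0.157 and 0.178 for mutants 1 and 2, and 0.203 for wild type 3, against 0.133 and 0.13 for wild types 1 and 2. Markers of intestine, body wall muscle and neurons all reached the log2 value of 4 that was set as the minimum for a test. Of 30 sperm genes with a probe set of their own, 23 lay below 4 on every array, as did 7 of 22 oocyte and eggshell genes and 5 of 13 germ cell genes. Of all genes with a probe set of their own, 45.4% did, against 76.7% of the sperm, 31.8% of the oocyte and 38.5% of the germ cell genes. Among the hypodermal markers 1 of 9 lay below 4 on every array. It was col-19, a collagen of the adult cuticle, and it is named here because its value set it apart.

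Of the 10 vitellogenin probe sets, 9 lay below a log2 value of 4 on all 6 arrays and were not tested, and 1 of vit-6 passed. The single rme-2 probe set also passed. Thus 2 of 11 member probe sets entered the fit, where 12060 of all 22548 did. With each gene read by the brightest probe set of its own, 4 of 6 member genes (66.7%) lay below 4 on every array. Of all such genes, 45.4% did. Each vitellogenin gene that the array reads had at least 1 probe set under that minimum. At the deposited floor of 2.04, the lowest value on any array, stood 4 of the 11 member probe sets on all 6 arrays. These were 191323_at of vit-2, 172673_x_at of vit-4, 172696_x_at of vit-5 and 190649_at of vit-6. Of all probe sets, from 31.7% to 32.4% stood at the floor on a given array. A value at the floor is a bound and carries no difference between the genotypes.

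Another 2 member probe sets held 1 value on all 6 arrays above the floor. The vit-4 probe set 171723_x_at read 2.17 on each mutant and each wild-type array. The probe set 194239_x_at, annotated to both vit-4 and vit-5, read 3.86 on each, which was the highest value among the probe sets not tested and lay just under the minimum of 4. Just above that minimum, the nearest member was the vit-6 probe set 173411_s_at, whose lowest value was 5.72. Values shared between arrays to within 1e-06 were common in the deposited table. One value on all 6 arrays was found at 7898 probe sets (35% of all), of which only 219 were among those tested (1.82% of these). It was found at 6 of the 11 member probe sets, none of which was tested.

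**Figure D1:**
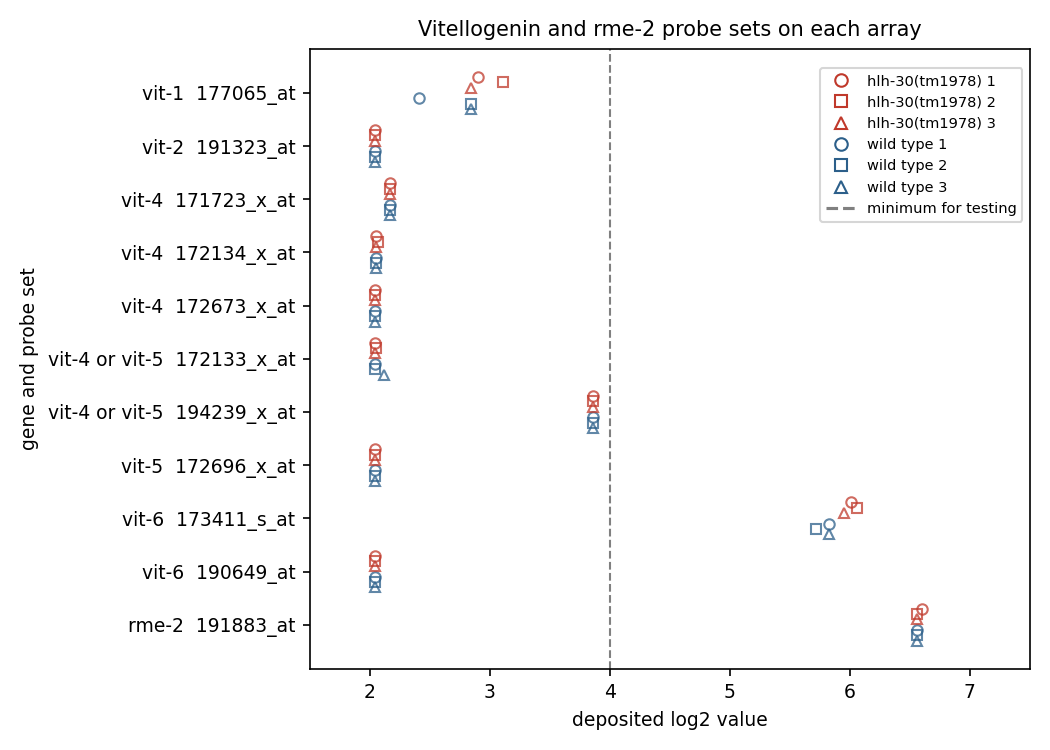
Deposited log2 value (horizontal axis) of each of the 11 member probe sets (rows) on the 3 hlh-30(tm1978) arrays (red, upper symbols of a row) and the 3 wild-type arrays (blue, lower symbols), with the shape giving the replicate number. The dashed line marks the log2 minimum of 4 for testing, which 1 vit-6 probe set and the rme-2 probe set exceed.

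The remaining 3 untested probe sets differed between single arrays and not between the genotypes as a whole. The vit-4 probe set 172134_x_at read 2.05, 2.07 and 2.05 on mutants 1, 2 and 3, against 2.05 on each wild-type array. Mutant 2 alone departed from the shared value. The probe set 172133_x_at of vit-4 and vit-5 read 2.04, 2.05 and 2.04 on mutants 1, 2 and 3, against 2.04, 2.04 and 2.12 on wild types 1, 2 and 3. Wild type 3 was the highest, and the genotypes overlapped. Over all 9 untested probe sets the range across the 6 arrays was under 0.1 on the log2 scale for 8, and vit-1 was the exception.

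The vit-1 probe set 177065_at read 2.90, 3.11 and 2.84 on mutants 1, 2 and 3, against 2.41, 2.84 and 2.84 on wild types 1, 2 and 3. Mutants 1 and 2 lay above every wild-type array, mutant 3 shared its value with wild types 2 and 3, and wild type 1 was the lowest. The means were 2.95 ± 0.14 on mutant arrays and 2.70 ± 0.24 on wild-type arrays (SD, n = 3 each). The difference of 0.25 on the log2 scale was close to the SD of the wild-type arrays alone. It was not tested, since every value lay below 4, and setting values under 4 to 4 makes it 0 by construction. With 1 array left out it ran from 0.11, without wild type 1, to 0.32. Without both arrays numbered 3 it was 0.38.

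The probe sets of vit-4 and vit-5 end in _x_at, an Affymetrix suffix for probe sets whose probes may also bind other transcripts, and 6 of the 11 member probe sets are of this kind. The vitellogenin genes are close paralogues, so a value at these probe sets cannot be assigned to 1 gene. All 6 lay below 4 on every array.

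The gene vit-6 was read by 2 probe sets. At 190649_at every array stood at the floor of 2.04, so that it gave no reading of the genotype difference. At 173411_s_at, whose suffix _s_at marks probes shared by several transcripts, mutants 1, 2 and 3 read 6.01, 6.06 and 5.95, against 5.83, 5.72 and 5.83 on wild types 1, 2 and 3. Each mutant array lay above each wild-type array, and wild types 1 and 3 held the same value. The means were 6.01 ± 0.058 on mutant arrays and 5.79 ± 0.063 on wild-type arrays (SD, n = 3 each).

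The fitted difference at 173411_s_at was 0.22 on the log2 scale (SE 0.059), a mutant over wild-type ratio of 1.16 with a 95% confidence interval of 1.05 to 1.29 from limma. It did not pass the threshold of 0.05 (limma adjusted p 0.352, unadjusted p 0.0142). Wild types 1 and 3 held the same value at this probe set, so the interval may understate the spread between biological replicates. No member probe set was called in limma, where 16 of 12060 probe sets (0.133%) were called, 2 of them higher (0.0166%) and 14 lower (0.116%) in the mutant. At an unadjusted p under 0.05 stood 1 of the 2 tested members, where 9.05% of all tested probe sets did. All mutant arrays lay above all wild-type arrays at 3.65% of the tested probe sets, and the genotypes did not overlap in either direction at 14.4%.

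The difference stayed between 0.18 and 0.28 under each of the alternative settings that gave a value for 173411_s_at. With limma's array quality weights it was 0.25 (SE 0.040) and passed the threshold at a limma adjusted p of 0.0371. That fit gave mutant 1 a weight of 6.76 and mutant 3 a weight of 0.119, and it called 804 probe sets (6.67% of those tested). Without both arrays numbered 3 the difference was 0.26 with a limma adjusted p of 0.122, in a fit that called 1.98% of the probe sets. The median difference over all 11 member probe sets was 0, as most of them held values shared by both genotypes.

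**Figure D2:**
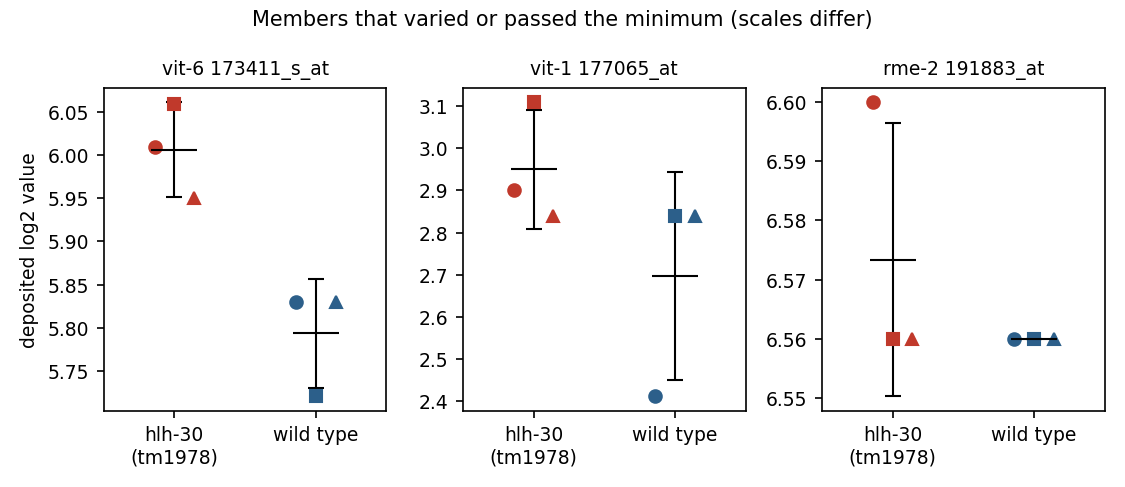
Deposited log2 values of vit-6 (173411_s_at), vit-1 (177065_at) and rme-2 (191883_at) on the hlh-30(tm1978) arrays (red, left) and the wild-type arrays (blue, right); shapes give the replicate number (circle 1, square 2, triangle 3), and bars show the mean and SD of 3 arrays on axes of different scale. The mutant arrays lie above the wild-type arrays at vit-6 and overlap them at vit-1 and rme-2.

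**Figure D3:**
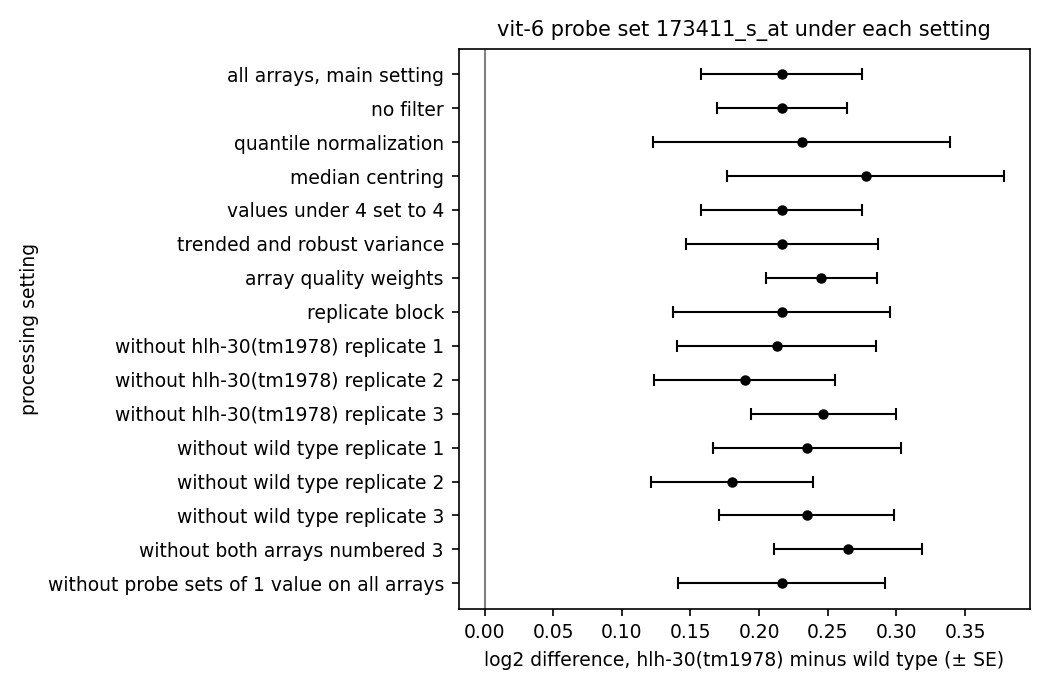
Log2 difference of the vit-6 probe set 173411_s_at, hlh-30(tm1978) minus wild type, with its SE (horizontal bars), under the main setting and each alternative (rows). All points lie between 0.18 and 0.28.

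The yolk receptor gene rme-2, transcribed in the germ line and active in oocytes, read 6.60, 6.56 and 6.56 on mutants 1, 2 and 3 at 191883_at, against 6.56 on each wild-type array. The value of 6.56 was the same on 5 arrays, and mutant 1 alone lay above it. The fitted difference was 0.01 (SE 0.041) on the log2 scale, a fold of 1.01 with a 95% interval of 0.939 to 1.09 (limma adjusted p 0.934). Of the tested probe sets, 5.78% held 1 value on 5 or 6 arrays. Where nearly all arrays share a value, the interval describes the deposited numbers and gives no measure of the spread between the biological replicates of rme-2. Whether 6.56 is the lowest value this probe set can take is not known here, and if it is, the fold says nothing about the rme-2 transcript.

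The genes with the array profile most like that of 173411_s_at were sought among 2985 tested genes with an SD of at least 0.3 over the 6 arrays. Pearson's r is given as a description, over arrays that also carry the genotype difference. The infection response gene irg-4 had an r of 0.941 and read 12.11, 12.28 and 11.97 on mutant arrays, against 11.37, 11.44 and 11.46 on wild-type arrays. F49C12.4 (r = 0.94) read 10.07, 10.07 and 8.70 on mutant arrays, against 6.74, 6.53 and 6.27 on wild-type arrays. C33H5.1 (r = 0.938) read 7.75, 7.61 and 5.07 on mutant arrays, against 2.39, 2.55 and 2.82 on wild-type arrays. In each of these 3 genes the mutant arrays lay above the wild-type arrays, and F59D6.1 (r = 0.923) and C18G1.1 (r = 0.903) followed. For rme-2 the closest was C15C8.5 (r = 0.997), which read 5.77, 4.91 and 4.83 on mutant arrays, against 4.83 on each wild-type array. The likeness to rme-2 rests on mutant 1 alone. The next were fbxb-101, W03B1.3, mks-6 and rhgf-3, with r from 0.819 to 0.929.

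Regulators of vitellogenin transcription had no called gene with all arrays weighted equally. Of 14 listed, 13 had a probe set of their own and 9 were tested. The fitted difference was above 0 for 1, below 0 for 7 and 0 for 1, with a median of −0.12, while 46% of the 9113 genes tested lay above 0 with a median of −0.01. Of those genes, 13 (0.143%) were called. The list had 1 gene at an unadjusted p under 0.05, where 8.59% of all genes stood. This was pqm-1, a zinc finger transcription factor linked to yolk gene expression, which read 11.14, 11.04 and 10.81 on mutant arrays, against 11.58, 11.69 and 11.73 on wild-type arrays. Its genotypes did not overlap, as was so for 13.6% of all genes tested (log2 difference −0.67, SE 0.104, limma adjusted p 0.128). The homeobox gene ceh-60, an activator of vitellogenin genes in the adult intestine, stood at the floor of 2.04 on all arrays, as did mab-3, which represses them in males. These 2 genes are named because they stood at the floor. The intestinal GATA factor elt-2 had a difference of 0.29 (SE 0.133, limma adjusted p 0.62), sgk-1, a kinase acting with TOR complex signalling, −0.15 (SE 0.065, 0.617), and the lipoprotein receptor relative lrp-2 −0.46 (SE 0.218, 0.629). The list median was −0.06 after median centring and −0.06 after quantile normalization, with 3 genes above 0 and 6 below in each, and −0.14 without both arrays numbered 3. With array quality weights 3 of the 9 were called, where 6.46% of all genes were. These were elt-2 at 0.38 (SE 0.061, limma adjusted p 0.0357), pqm-1 at −0.53 (SE 0.056, 0.0156) and sgk-1 at −0.20 (SE 0.031, 0.0352).

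Genes for lipoprotein assembly and secretion were all bright enough to test and had no called member. Of 13, the fitted difference was above 0 for 4 and below 0 for 9, with a median of −0.07. The small GTPase gene rab-1, which acts between the endoplasmic reticulum and the Golgi, averaged 12.53 ± 0.28 on mutant arrays and 13.07 ± 0.083 on wild-type arrays (SD, n = 3 each; log2 difference −0.53, SE 0.155, limma adjusted p 0.398). dsc-4, the worm counterpart of the microsomal triglyceride transfer protein that loads lipid onto lipoproteins, had a difference of −0.23 (SE 0.101, limma adjusted p 0.609). The genotypes did not overlap for either gene, as was so for 13.6% of all genes tested. For dsc-4 the nearest arrays were mutant 2 at 10.34 and wild type 2 at 10.35. sar-1, a GTPase of coat assembly, had −0.07 and tmem-131, which acts in collagen secretion, 0.17, and their genotypes overlapped. The list median was 0.06 without mutant 3 and 0.03 without both arrays numbered 3, both above 0, −0.12 without mutant 1 and −0.11 without mutant 2. It was −0.01 after median centring and 0.01 with array quality weights.

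Genes of endocytosis and recycling, many of which were found through defects in yolk uptake, were spread around 0. Of 28 listed, 26 were tested, with 12 above 0, 13 below 0, 1 at 0, a median of −0.0040 and none called. At an unadjusted p under 0.05 stood 2 of the 26, where 8.59% of all genes tested did. The early endosome GTPase gene rab-5 read 12.11, 11.99 and 12.10 on mutant arrays, against 12.50, 12.30 and 12.56 on wild-type arrays (log2 difference −0.39, SE 0.087, limma adjusted p 0.26). The polarity GTPase gene cdc-42 read 10.73, 10.49 and 10.63 on mutant arrays, against 10.87, 10.90 and 11.16 on wild-type arrays (−0.36, SE 0.111, limma adjusted p 0.429). In both genes each mutant array lay below each wild-type array. The genotypes did not overlap, in either direction, for 13.6% of all genes tested. rme-8, an endosomal DnaJ-domain protein, had −0.37 (SE 0.234) and par-6, a polarity protein, −0.18 (SE 0.112), with a limma adjusted p of 0.711 for each. The list median was 0.06 after median centring, 0.04 after quantile normalization and 0.04 without mutant 3. It was −0.09 without mutant 1. Of the relatives of RME-2 in the low-density lipoprotein receptor family, 4 of 5 were tested. Beside lrp-2, the fitted differences were 0.14 for egg-2, an egg-surface protein needed for fertilization, 0.25 for lrx-1 and −0.06 for lrp-1, the worm megalin, with none called.

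**Figure D4:**
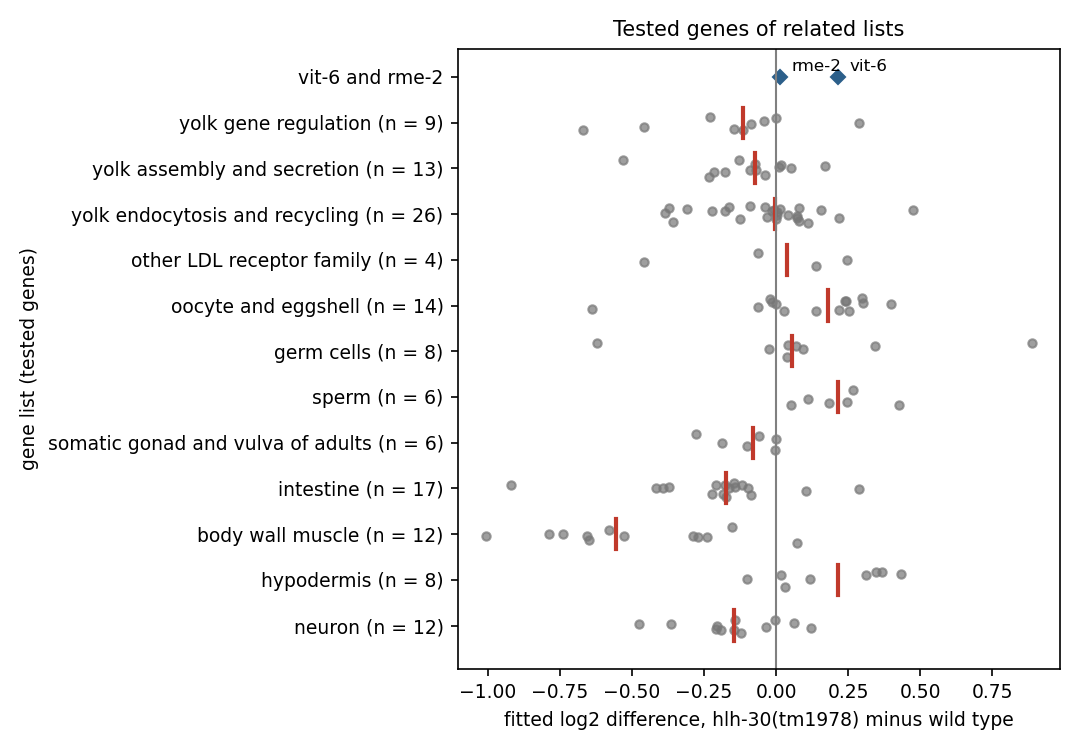
Fitted log2 difference, hlh-30(tm1978) minus wild type (horizontal axis), of each tested gene (grey points) in lists of related genes (rows), with the list median as a red bar and vit-6 and rme-2 as blue diamonds in the top row. Vertical scatter within a row only separates points; the vit-6 point lies at 0.22 and the rme-2 point at 0.01.

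Transcripts of sperm, oocytes and germ cells were read beside the yolk genes. Of 6 sperm genes tested, each a member of the major sperm protein family with near-identical copies, all had a fitted difference above 0 with all arrays, with a median of 0.21 and none called. Without mutant 1 the median was 0.13 and without wild type 2 it was 0.11, with 1 of the 6 below 0 in each case, and without both arrays numbered 3 it was 0.38. With array quality weights it was 0.42, and 1 of the 6, msp-59, was called higher, where 6.46% of all genes were called. In that fit msp-59 had a log2 difference of 0.63 (limma adjusted p 0.0191). Its probe set ends in _x_at, so the call cannot be assigned to msp-59 alone. msp-59 read 7.66, 7.57 and 7.44 on mutant arrays, against 6.97, 6.98 and 7.44 on wild-type arrays (log2 difference 0.43, SE 0.154, limma adjusted p 0.509), with mutant 3 and wild type 3 overlapping. msp-31 had 0.27 (SE 0.167), msp-55 0.24 (SE 0.19) and msp-65 0.05 (SE 0.056). The other 24 sperm genes with a probe set of their own did not reach the minimum for a test, and 12 of the 30 stood at the floor on all arrays. The mean log2 value of the 30 genes ran from 3.20 to 3.23 on mutant arrays and from 3.11 to 3.20 on wild-type arrays.

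Oocyte and eggshell genes were, on average, highest on mutant 3. Their mean log2 value was 5.48, 5.47 and 6.44 on mutants 1, 2 and 3, against 5.87, 5.67 and 5.49 on wild types 1, 2 and 3. Of 14 tested, 9 were above 0, 4 below 0 and 1 at 0, with a median of 0.18 and none called. Leaving out mutant 3 gave a median of −0.16, wild type 3 gave −0.0078 and both of them −0.22. It was 0.31 without mutant 1, 0.34 without mutant 2 and 0.28 without wild type 1. With array quality weights it was −0.16, and 1 of the 14 was called, lower, where 6.46% of all genes were called. This was pos-1 at −2.17 (SE 0.415, limma adjusted p 0.049), named here because it was the gene called. The maternal gene pie-1, a repressor of somatic fate in germline blastomeres, read 4.82, 4.64 and 6.48 on mutant arrays, against 5.09, 4.82 and 4.82 on wild-type arrays. cpg-1, an eggshell chondroitin proteoglycan, read 9.28, 9.28 and 9.77 on mutant arrays, against 9.33, 9.18 and 9.17 on wild-type arrays. Germ cell genes had the same high array, with a mean of 5.05, 5.17 and 5.80 on mutants 1, 2 and 3, against 5.38, 5.28 and 5.16 on wild types 1, 2 and 3. With array quality weights 1 of their 8 tested genes, gld-1, was called lower (log2 difference −1.62, SE 0.284, limma adjusted p 0.0412).

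Markers of the intestine, the tissue that makes yolk in adults, mostly had fitted differences below 0. Of 17 tested, 2 had a fitted difference above 0 and 15 below 0, with a median of −0.17 and none called. The median was −0.11 after median centring and −0.13 without both arrays numbered 3, where 5 were above 0. With array quality weights it was −0.18, with elt-2 called higher and ifc-2 lower, where 6.46% of all genes were called. The mean log2 value of the intestine markers ran from 11.03 to 11.26 on mutant arrays and from 11.28 to 11.37 on wild-type arrays, and no marker stood at the floor. Among them cpr-1, a cathepsin B-like protease, read 12.51, 12.89 and 12.63 on mutant arrays, against 13.60, 13.22 and 13.98 on wild-type arrays (−0.92, SE 0.226, limma adjusted p 0.298). The GATA factor elt-2, also in this list, went the other way with all arrays weighted equally (0.29, SE 0.133, limma adjusted p 0.62). Body wall muscle markers had a median of −0.56 over 12 genes, with 11 below 0 and 1, the troponin gene tnt-2, called lower. Without both arrays numbered 3 it was −0.27, with 8 of 12 below 0. With array quality weights it was −0.34, and 5 of the 12 were called, all lower, where 6.46% of all genes were called. Hypodermal markers had a median of 0.21 over 8, which was 0.05 without wild type 3 and 0.06 without both arrays numbered 3. Neuron markers had −0.15 over 12, and leaving out wild type 3 gave −0.05, mutant 3 −0.08 and both of them 0.02. Genes listed for the somatic gonad and vulva of adults had −0.08 over 6, and leaving out mutant 3 gave 0.02, wild type 3 likewise 0.02 and both of them 0.13. With array quality weights 1 neuron marker was called, lower, and none of the hypodermal list or of the gonad and vulva list. The part of these tissue differences in the vit-6 value was not tested.

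**Figure D5:**
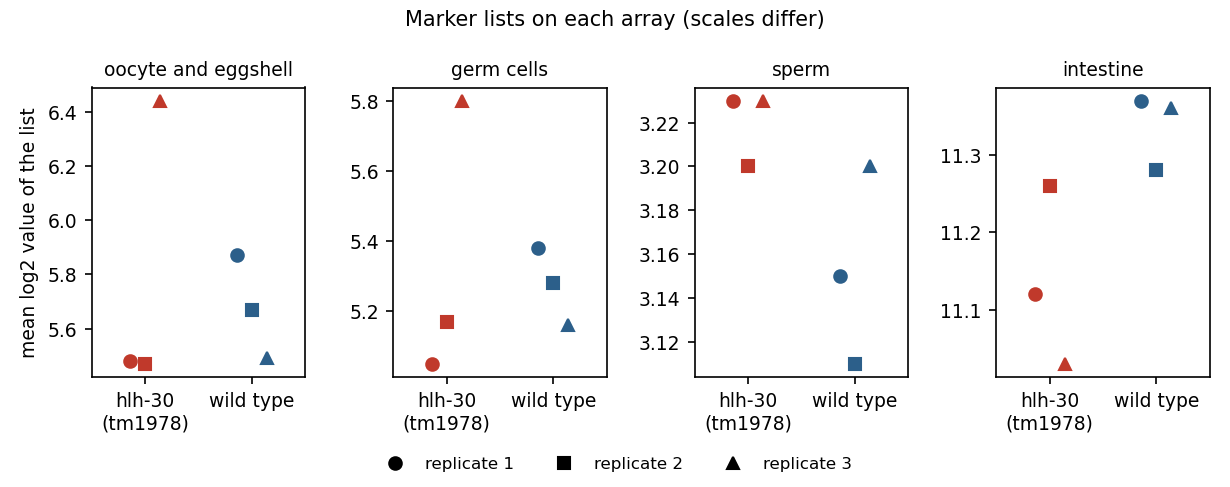
Mean log2 value of all genes of 4 marker lists that have a probe set of their own, on the hlh-30(tm1978) arrays (red, left) and the wild-type arrays (blue, right), with the shape giving the replicate number and a different scale in each panel. Mutant 3 is the highest array for oocyte and germ cell genes, and the mutant arrays lie below the wild-type arrays for intestine.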

How the data were processed

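For 6 Affymetrix arrays of biotin-labelled RNA, the authors deposited a log2 value per array for each probe set. The submitters' processing notes name GCRMA and limma, with no version or setting given in the sources used here. Scanner files were not analysed here, which leaves detection calls and scan dates unknown. Precision is limited by the number of arrays.

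Samples were grouped by their labels. Testing required a log2 of 4 or more on 3 or more arrays, which 12060 probe sets met. The test was limma's moderated fit (version 3.58.1, run in R 4.3.3), mutant minus wild type, with Benjamini-Hochberg adjustment over all of them. The 77 control probe sets were left out. In the other lists, the brightest probe set annotated to a gene alone stood for it. The annotation's gene numbers of the 6 members on the array equalled those of RefSeq. With 3 arrays against 3, an exact permutation test cannot give a p under 0.1. The fit was tested on simulated data. Members, lists and the alternative without replicate 3 were chosen with earlier results of these data known. Genes were named as members, as the 4 of a list with the smallest p, or as the 5 most alike in profile; exceptions are marked. Protein, promoter and probe sequences were not used here. Replicates are biological per the labels' protocols.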

Additional observations from a re-analysis of the deposited data

How the results depend on the processing

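The number of probe sets called, 16 in limma, depended on the setting. It was 5 with no filter, 25 after quantile normalization, 10 with plain probe set names only, 87 at an adjusted p under 0.1, 804 with array quality weights and 239 without both arrays numbered 3. With 1 array left out it ran from 0 to 4: 4, 1 and 2 without mutants 1, 2 and 3, and 0, 3 and 4 without wild types 1, 2 and 3. With the replicate number as a block it was 0. At an unadjusted limma p under 0.05 there were 1092 in all, 802 without wild type 1 and 818 under the block, and more without mutant 3 (1360), without wild type 3 (1291), without both (3023) and with array quality weights (3522). Same-numbered arrays did not deviate together (correlations of −0.408, −0.423 and −0.519 over the tested probe sets), so the numbers were not taken as pairs. Under the block the vit-6 difference at 173411_s_at was 0.22 (SE 0.079, limma adjusted p 0.771) and that of rme-2 0.01 (SE 0.059, limma adjusted p 0.981).

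The count of member probe sets called was 0 except with array quality weights, where it was 1, the vit-6 probe set at 0.25 (limma adjusted p 0.0371). Over its 15 alternatives that probe set ran from 0.18 to 0.28, with limma adjusted p from 0.0371 to 0.771. Probe sets with 1 value on all arrays were left out in an alternative chosen after seeing the data, where its adjusted p was 0.49. It was not tested at a minimum of 6 or among plain names. The median over members was 0.061 after median centring, a shift given to every probe set by that scaling, and 0 with 1 array left out. The rme-2 difference ran from 0 to 0.075 over 17 alternatives. Values at or near the floor limit every statement on vit-1, vit-2, vit-4 and vit-5, and the comparison of protein and promoter sequences was not run.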
